A study of Mus musculus with 18 samples.

Results

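The transcripts of Aldoa, the mouse gene for the glycolytic enzyme aldolase A, began at many places over about 5 kb of chromosome 7 but shared 1 end. The isoforms were taken by position: all rows on the minus strand of chromosome 7 with both ends in a window of 7 kb that holds the gene (build GRCm39). That gave 26 of the 7123 isoforms in the polysome table and 28 of the 6636 in the decay table, and 16 isoforms were in both. The gene was selected on the coverage, TE and half-life of its start sites, which earlier results of these tables had shown, so those values are a description with no test. No isoform crossed the edge of that window. The next isoforms of this strand lay at chr7:126450757-126461053 upstream (coverage 24, TE 0.000523, in the polysome table) and chr7:126222421-126224661 downstream (coverage 95, TE 0.00106).

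The cells were primary myoblasts from the gastrocnemius of female wild-type mice, turned into myotubes in culture with the ERK inhibitor SCH772984 for 24 h. Both assays used TIF-seq2, which pairs the start and the end of single mRNA molecules. The polysome assay had 6 libraries: ribosome-free, light and heavy sucrose gradient fractions from each of the same 2 mice. The decay assay had 12 libraries, taken 0, 3, 6 and 12 h after transcription was stopped with actinomycin D. Its sample titles name the same 3 mice, A, B and C, at each time. All groups therefore shared the ERK inhibitor, and no tissue or untreated myoblasts entered these values. Each deposited table held 1 row per isoform with 1 coverage count pooled over its libraries. With no value per mouse, mouse-to-mouse variation could not be measured for any difference below, and the intervals given cover counting error only.

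Aldolase A splits fructose bisphosphate into triose phosphates and is the main aldolase of skeletal muscle. The mammalian gene is a textbook case of alternative promoters: several noncoding first exons are spliced to the same coding exons, and among the promoters 1 is favoured in fast skeletal muscle while others act in most tissues. Different promoters can therefore give mRNAs that differ in the leader (the 5′ UTR, from the first base to the start codon) and encode the same enzyme. The starts below are named by position only and were not assigned to those known promoters.

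Before the start codon, the most covered starts fell into a distal, a middle and a proximal region, named here from the 5′ side of the gene. Their first bases are printed because they show that unlike sequences precede each start. In each line 15 bases upstream of the start are in lower case and the first 15 transcribed bases are in capitals, on the minus strand of GRCm39, read from the deposited leaders of isoforms that began further upstream. The most covered distal start differed between the tables, so both are shown.
Distal start of the polysome table, chr7:126399595-126399624: ccaccagcaggcaccAGAGTCAAGGGAGGA
Distal start of the decay table, chr7:126399523-126399552: cccttcttgttctgcCTTACAGATCCTGGA
Middle start, chr7:126399204-126399233: tggactgccgggctcACTCTCTGCTGACCG
Proximal start, chr7:126398299-126398328: tctcttggaacgcgcAGCAGAACGAGGTTC
The first base was A at 3 of these starts and C at the distal start of the decay table, and C stood just before each of them. Of all nuclear leaders 58.6% in the polysome table and 61.1% in the decay table began with A. The 40 bases before each start were searched on both strands for the motif TATAAA, found at none of the 4, and for TTAAAA, found once, beginning 29 bases before the middle start. In RefSeq promoters of build GRCm38.p6 the same 40-base stretch held TATAAA in 3.03% and TTAAAA in 2.56% of 32851. A match is a run of letters and not evidence of a bound factor.

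The 3′ end of Aldoa was among the most covered in both assays. Its isoforms summed to a coverage of 17558, or 1.10% of all nuclear coverage, in the polysome table and 45688, or 1.47%, in the decay table. Coverage counts molecules by their end pairs and was not scaled by length. Every isoform ended at chr7:126394407, with a 3′ UTR of 184 nt against a median of 336 and 309 nt over all isoforms. That end ranked 4th of 3841 3′ ends by coverage in the polysome table and 5th of 4274 in the decay table. It was joined to 26 and 28 starts, where the median 3′ end had 1. More starts were joined to 6 other 3′ ends in the polysome table and to 3 in the decay table. The last bases of the 3′ UTR are shown with the hexamer AATAAA, the canonical polyadenylation signal, in capitals; it began 22 nt before the end.
End of the 3′ UTR: tgccAATAAAcaactatttaaggggg

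**Figure D1:**
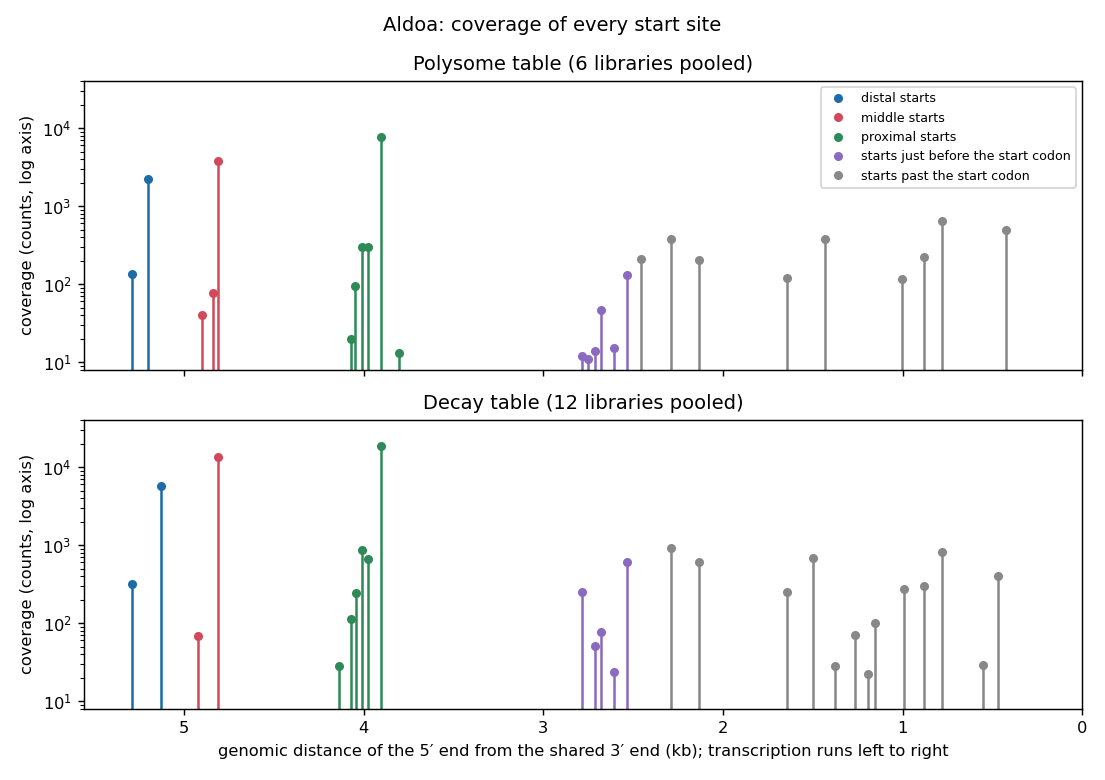
Coverage of each Aldoa start site (counts, log axis) against its genomic distance from the shared 3′ end (kb), in the polysome table above and the decay table below; colours mark the 5 regions. In each plot 1 start stands above its neighbours in each of the distal, middle and proximal regions, and the grey starts past the start codon are spread along the gene.

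The proximal region held the largest share of Aldoa coverage. It had 6 starts and 47.6% of the coverage (95% Wilson interval 46.9 to 48.3) in the polysome table, and 6 starts and 45.0% (44.6 to 45.5) in the decay table. Within it, the start at chr7:126398313 alone had a coverage of 7625 (43.4% of all Aldoa coverage) and 18631 (40.8%). It ranked 16th of 7095 nuclear isoforms in the polysome table and 14th of 6593 in the decay table.

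The middle region had 22.0% (21.3 to 22.6) of the coverage in the polysome table and 29.8% (29.4 to 30.3) in the decay table. Almost all of it came from a single position, chr7:126399218, 905 nt upstream of the proximal main start. That start had a coverage of 3738, rank 69, in the polysome table and 13565, rank 27, in the decay table. It made up 97.0% and 99.5% of its region's coverage.

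The distal region was the smallest of the 3, with 13.4% (12.9 to 13.9) in the polysome table and 13.1% (12.8 to 13.4) in the decay table. Its main start was not the same in the tables. The polysome table listed chr7:126399609 with a coverage of 2222, and the decay table listed chr7:126399537, 72 nt downstream, with a coverage of 5657. Neither position was in the other table. No source used here gives how the authors joined nearby 5′ ends into 1 peak, and whether the shift came from that step was not tested. A weaker distal start at chr7:126399698 was in both, with a coverage of 134 and 314.

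The 3 main starts together held 77.4% (76.7 to 78.0) of Aldoa coverage in the polysome table and 82.9% (82.5 to 83.2) in the decay table. The tables differed most in the middle region, whose share was 22.0% in the first and 29.8% in the second. The proximal shares, 47.6% and 45.0%, had intervals that did not overlap, and the distal intervals overlapped. The intervals leave out differences between mice, and the tables pool different fractions and times, so the assay and the set of libraries cannot be told apart.

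**Figure D2:**
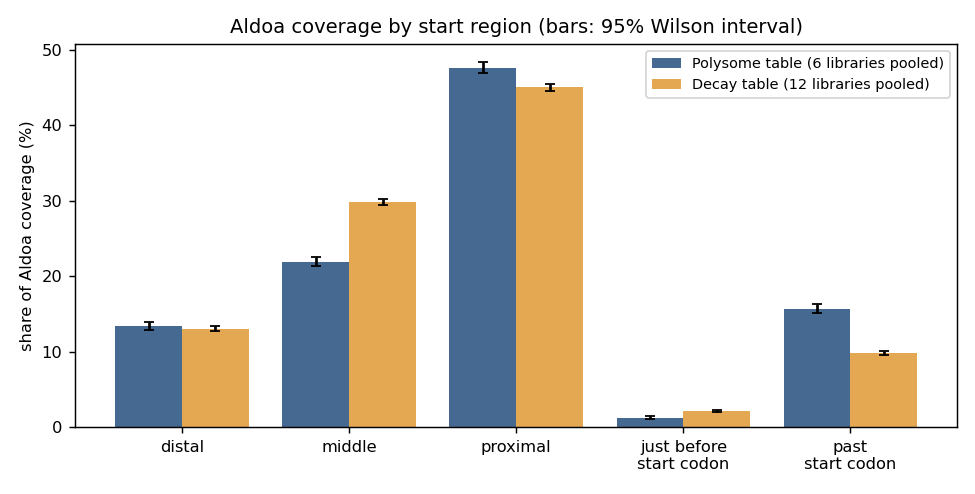
Share of Aldoa coverage (%, linear axis from 0) that began in each of 5 regions, for the polysome table (blue) and the decay table (orange), with 95% Wilson intervals for counting error. The proximal region has 47.6% and 45.0%, the middle region 22.0% and 29.8%, and starts past the start codon 15.7% and 9.87%.

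The authors classed 11 polysome isoforms and 8 decay isoforms of Aldoa as annotated transcripts, which held 83.0% and 87.7% of the coverage, and 15 and 20 as having a new start. The distances in the tables imply 5 annotated starts for the gene: chr7:126399619, chr7:126399218, chr7:126398426, chr7:126398313 and chr7:126398165. The middle and proximal main starts lay on annotated starts to the base. The distal main starts lay 10 nt (polysome table) and 82 nt (decay table) downstream of the annotated distal start. The annotated start at chr7:126398165 had a single listed start near it, chr7:126398208, with a coverage of 13, a TE of 0.000703 and 3 upstream ATGs in the polysome table. The first of these ATGs lay 207 nt before the main start codon, in its reading frame, and met no stop in the leader. The first 20 bases of 6 starts in each table were found in RefSeq promoter sequences, and these were promoters of Aldoa only. The distal main start of the polysome table was among them. The middle main start, the proximal main start and the distal main start of the decay table were not. RefSeq also lists 5 copies of Aldoa (Aldoart1, Aldoart2, Aldoa-ps3, Aldoa-ps4 and Gm5389), from which reads could in principle stem. No row elsewhere in either table carried an Aldoa leader tag or the end of its 3′ UTR, and no source used here gives how reads with several matches were placed.

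The leaders of the 3 regions differed in length and in base composition. The middle main start gave the shortest, 66 nt at 65.2% GC. The proximal main start gave 109 nt at 64.2% GC. The distal leaders were poorer in GC, with 171 nt at 49.1% GC from chr7:126399609 and 99 nt at 47.5% GC from chr7:126399537. Over all nuclear isoforms the median leader, as deposited, was 110 nt in the polysome table and 96 nt in the decay table. The shared start codon lay at chr7:126396927, where 5 polysome leaders and 4 decay leaders without an intron placed it. Of the 17 polysome isoforms that began before it, 16 had the same last 13 bases, and so did 14 of 15 in the decay table. The exception in both was the proximal main start, whose deposited leader ended in other bases. Both ends are shown with the last 3 bases before the start codon in capitals, since the base at the first of these (position -3) is part of the Kozak context in which ribosomes recognise a start codon.
Middle leader, end: caggaaagcactgccaccggcACC
Proximal main leader, end: gtcctgtgccaggcaaggtgaCCC
Position -3 was A in the first and C in the second. A purine stood there in 83.0% and 85.1% of all nuclear leaders. The first 98 bases of the proximal main leader were shared with the leaders that began just upstream of it. If it were joined to the common exon as those are, it would be 118 nt long with 64.4% GC and no upstream ATG. Splicing between the sequenced ends was not measured, so which leader these molecules carried is not known.

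Deposited leaders of isoforms that began at least 8 nt upstream of an annotated start repeated their first bases. This held for 6 of 6 such Aldoa leaders in the polysome table and 5 of 5 in the decay table, and for 38.8% of such nuclear leaders in each table. Lengths, GC and upstream ATGs of Aldoa are given here with the second copy removed. The median leader lengths over all nuclear isoforms were taken with that copy left in. For the distal start at chr7:126399698 this changed 339 nt to 260 nt.

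Upstream start codons, which can hold back ribosomes before the main coding sequence, were unevenly placed among the starts. The middle leaders had none, and the proximal main leader had none. A single ATG stood 121 nt before the main start codon in the distal leaders that reached it, followed by a stop codon after 13 codons. It was in the leader from chr7:126399609 and not in that from chr7:126399537, which began downstream of it. Another ATG stood 185 nt before the main start codon in the proximal leaders that began upstream of the main proximal start, and met a stop after 14 codons. It is shown in both settings because the start position decided how much sequence preceded it: the start at chr7:126398382 left 2 bases before the ATG and that at chr7:126398415 left 35. Both ATGs had T at position -3 where that base was transcribed, and the ATG is in capitals.
Distal leader from chr7:126399609: ggcaatatctagATGttttcccttctt
Proximal leader from chr7:126398415: cggcgcctttaaATGtccggggccccg
Proximal leader from chr7:126398382: aaATGtccggggccccg
Of the isoforms that began before the start codon, 11 of 17 in the polysome table and 9 of 15 in the decay table had an upstream ATG. Weighted by coverage the shares were much lower: 21.5% (20.8 to 22.1) in the polysome table and 5.82% (5.60 to 6.05) in the decay table. Without the distal starts they were 6.58% (6.15 to 7.02) and 5.92% (5.67 to 6.17). The gap between the tables thus lay in the distal start that each listed. Counted by isoform, 42.3% and 35.5% of all nuclear leaders had an ATG. That background took every nuclear isoform with a leader, wherever it began, so it is a wider set than the Aldoa isoforms counted here.

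The authors' value TE, read here as translation efficiency, differed among the 3 main starts. TE has no unit, and no source used here gives its formula. The middle start had a TE of 0.000996, the distal start 0.000759 and the proximal start 0.000627. Middle was thus the highest and proximal the lowest, a ratio of 1.59 (0.67 on the log2 scale). Middle over distal was 1.31 (0.39) and distal over proximal 1.21 (0.28). Among the 3517 nuclear isoforms with coverage 30 or more and a positive TE, the middle start stood above 69.8%, the distal start above 51.8% and the proximal start above 37.99%. The median TE of that pool was 0.000742, with 5th and 95th percentiles of 0.000286 and 0.00174. All 3 thus lay in the body of the distribution.

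As a gauge of technical spread, isoforms of any gene whose ends both lay within 20 nt of each other were compared. The root mean square of their log2 TE ratios was 0.345 over 33 pairs with a coverage of at least 30, and 0.117 over the 4 pairs with at least 100. These values are set down beside the log2 differences of 0.67, 0.39 and 0.28 above as a description only. No pair of this kind had a coverage of at least 300, so no gauge exists at the depth of the main starts. Over 33 pairs of starts of any gene with 1 shared 3′ end and a coverage of at least 1000, the root mean square log2 TE ratio was 0.347. These pairs include those between the main Aldoa starts, so that value is partly made of the differences it stands beside.

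TE also varied among the starts of a region. The middle starts had TE values of 0.000871 at chr7:126399308 (coverage 40), 0.00106 at chr7:126399245 (coverage 76) and 0.000996 at the main start. The distal starts had 0.000901 at chr7:126399698 and 0.000759 at chr7:126399609, a ratio of 1.19. The proximal starts upstream of the main one all had a higher TE than it. These were 0.000739 at chr7:126398477 (coverage 20), 0.000709 at chr7:126398457 (96), 0.000777 at chr7:126398415 (300) and 0.000835 at chr7:126398382 (303). The last was 1.33 times the main proximal start, 0.42 on the log2 scale. These 4 starts had the upstream ATG in their leaders and the main proximal start did not. Leader length, start position and the deposited end of the leader differed between them as well. Whether the ATG affected TE was not tested.

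**Figure D3:**
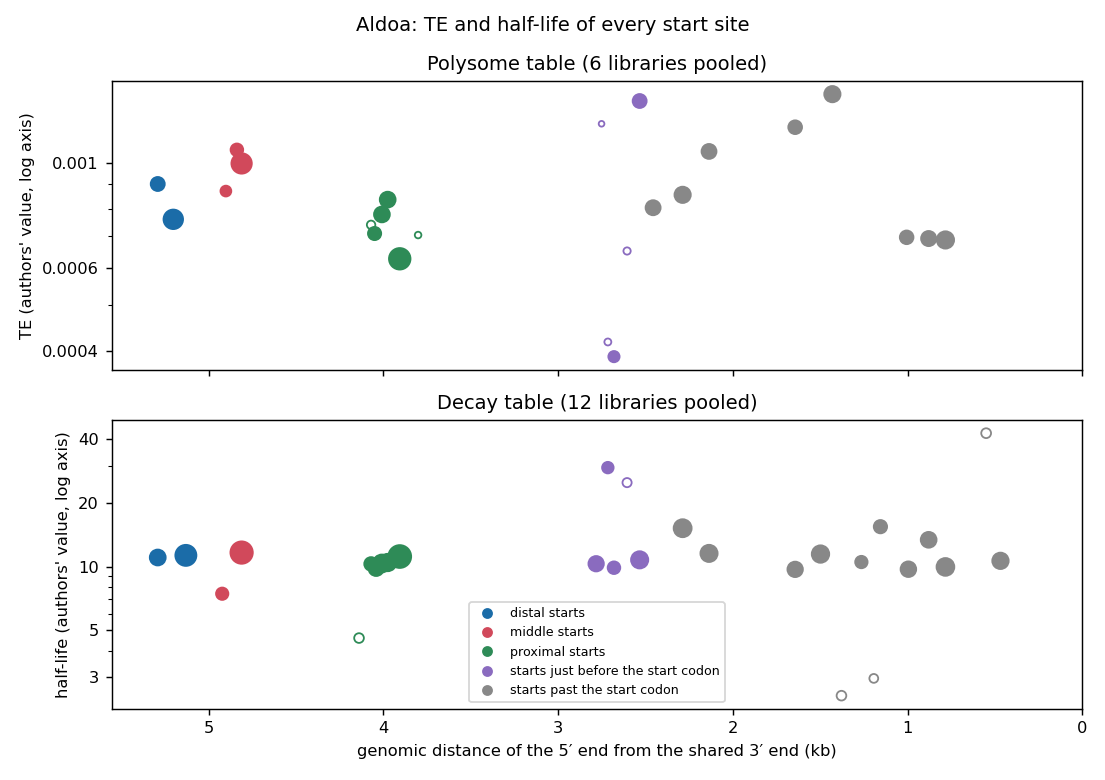
TE (upper plot) and half-life (lower plot) of each Aldoa start, both on log axes, against genomic distance from the shared 3′ end (kb). Point area grows with coverage, and open points have a coverage under 30; a start with a missing TE and one with a TE below 0 are not drawn. The middle starts lie above the proximal starts in the TE plot, while the 3 main starts are level in the half-life plot, at 11.2 to 11.7.

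Half-lives of the 3 main starts were close to each other. No source used here gives a unit for it; sampling times were in hours. The values were 11.7 for the middle, 11.3 for the distal and 11.2 for the proximal start. The ratio of middle to proximal was 1.04 (0.06 on the log2 scale), of middle to distal 1.03 (0.04) and of distal to proximal 1.01 (0.02). Near-identical isoforms had a root mean square log2 half-life ratio of 0.784 over 42 pairs with a coverage of at least 30. It was 0.407 over 10 pairs with 100 or more. These pairs were far less covered than the main starts. Pairs of starts of any gene with 1 shared 3′ end and coverage of 1000 or more had a root mean square log2 ratio of 0.196 over 107 pairs. The pairs between the main Aldoa starts are among these 107. The median half-life of the 5247 nuclear isoforms of coverage 30 or more was 10.8, with 5th and 95th percentiles of 6.50 and 19.9. The middle start stood above 60.02% of them, the distal above 55.7% and the proximal above 54.1%.

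The weaker proximal starts had half-lives a little below the main one. They were 10.3 at chr7:126398477, 9.82 at chr7:126398448, 10.4 at chr7:126398415 and 10.5 at chr7:126398382, or 0.880 to 0.937 of the main start's value. The proximal start at chr7:126398546 (coverage 28) had 4.60 and the middle start at chr7:126399329 (coverage 68) had 7.45. These low values came from the least covered starts of their regions.

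**Figure D4:**
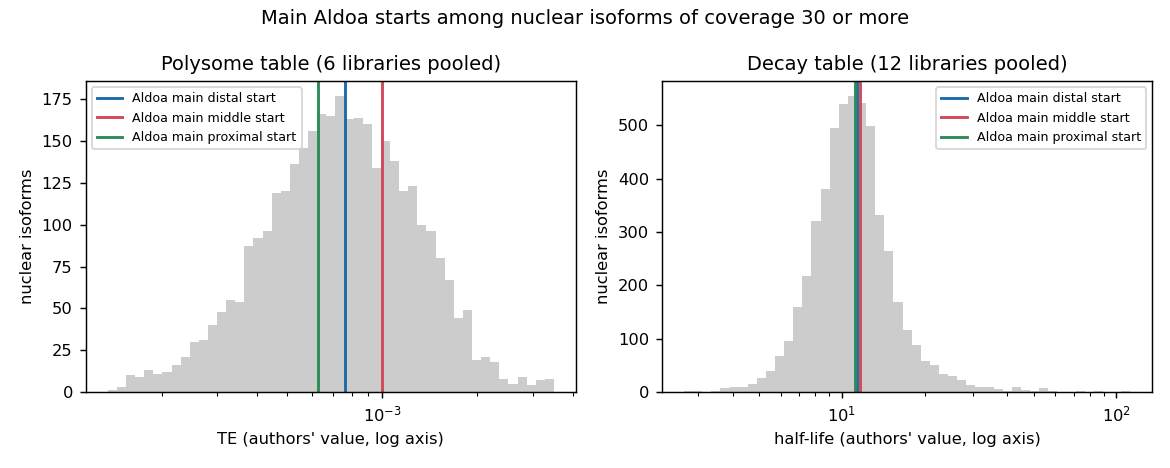
Distribution of TE (left) and half-life (right), log axes, over nuclear isoforms of coverage 30 or more (grey bars, number of isoforms; the extreme tails are not drawn), with vertical lines for the main distal, middle and proximal Aldoa starts. The TE lines are apart, above 51.8%, 69.8% and 37.99% of isoforms, and the half-life lines nearly coincide at 55.7%, 60.02% and 54.1%.

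A separate set of starts lay between the noncoding first exons and the start codon, at chr7:126396940-126397189. They were minor, with 1.31% (1.15 to 1.49) of the coverage over 6 starts in the polysome table and 2.22% (2.09 to 2.36) over 5 in the decay table. The most covered, at chr7:126396940, left a leader of only 13 nt with no upstream ATG. It had a coverage of 132 and a TE of 0.00135, above 86.6% of nuclear isoforms, and in the decay table a coverage of 614 and a half-life of 10.8. The start at chr7:126397087 had a leader of 160 nt with ATGs 70 and 65 nt before the main start codon. Its TE of 0.000389 was the lowest of Aldoa among starts with a coverage of at least 30, and its coverage was only 46. The first of these ATGs met a stop after 5 codons, and the second met none in the leader. The same ATGs stood in the leaders from chr7:126397158, chr7:126397122 and chr7:126397012, all with a coverage under 30. Their TE values were 0.00121 (coverage 11), 0.000418 (14) and 0.000651 (15). A coverage of 11 was the lowest listed in the polysome table. Whether these ATGs affected TE was not tested. The start at chr7:126397189 had a TE below 0 (-0.0430) at a coverage of 12. What a TE below 0 means is not stated in the sources used here. In the decay table the start at chr7:126397012 had a half-life of 25.0 at a coverage of 24.

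Other starts lay past the start codon, so that molecules beginning there could not encode the whole enzyme. They numbered 9 in the polysome table with 15.7% (15.2 to 16.3) of Aldoa coverage, and 13 in the decay table with 9.87% (9.60 to 10.1). Unlike the upstream regions they had no dominant start: the most covered held 23.2% of the set in the polysome table (chr7:126395190, coverage 640) and 20.3% in the decay table (chr7:126396694, coverage 914). Of these starts 5 were in both tables. Whether they were capped ends or broken molecules was not tested. Over all nuclear isoforms, those classed as truncated at the 5′ end held 9.55% of the coverage in the polysome table and 9.15% in the decay table. They made up 21.9% and 19.5% of the isoforms. That class was not matched to start codons here, so it may differ from the set counted for Aldoa.

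TE of the starts past the start codon ran from 0.000687 to 0.00140 over 8 starts. It was 0.000803 at chr7:126396863, 0.000855 at chr7:126396694, 0.00106 at chr7:126396543, 0.00119 at chr7:126396050 and 0.00140 at chr7:126395837, in order along the gene. Nearer the 3′ end the values were lower, 0.000696 at chr7:126395412, 0.000691 at chr7:126395286 and 0.000687 at chr7:126395190. The start at chr7:126395837 (coverage 377) had the highest TE of all Aldoa starts, above 87.8% of nuclear isoforms. The coverage-weighted TE of the set was 0.000871, between those of the distal (0.000767) and the middle region (0.000996). Half-lives of the 10 starts of this kind with a coverage of at least 30 ran from 9.71 to 15.4, with a weighted value of 11.7. Those of lower coverage lay outside this range. They were 2.46 at chr7:126395785 (coverage 28), 2.96 at chr7:126395600 (22) and 42.7 at chr7:126394957 (29). Their deposited leaders held up to 6 ATGs, but the tables assign these isoforms start codons inside the coding sequence, and 3 decay isoforms (chr7:126395671, chr7:126395600 and chr7:126395562) carried the same 138-nt leader despite different starts. These ATG counts were therefore not compared with those of the full-length isoforms.

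Differences of at least 2-fold between Aldoa starts were concentrated on few starts. Pairs of starts that shared the 3′ end, lay at least 20 nt apart and both had a coverage of at least 30 were counted when the values were at least 2-fold apart. For TE, 16 of 171 Aldoa pairs (9.36%) were, against a background of 13.5% over 2810 such pairs of all genes. For half-life, 22 of 253 (8.70%) were, against 11.5% over 5568. Of the 16, 11 involved chr7:126397087 with a coverage of 46, and 5 involved chr7:126395837 with a coverage of 377; 1 pair joined these 2 starts. Of the 22, 20 involved chr7:126397122 with a coverage of 51 and a half-life of 29.4. With both starts at a coverage of at least 300, 2 of 28 pairs for TE and 0 of 78 for half-life were 2-fold apart, where the backgrounds were 6.62% and 2.98%. Both TE pairs at that depth set chr7:126395837, the highest value, against a lower one. The partners were the main proximal start, chr7:126398313 (coverage 7625), and chr7:126395190 (coverage 640). The log2 ratios of the upstream over the downstream start were -1.16 and 1.02. Over all 171 and 253 pairs the median difference was 0.38 for TE and 0.18 for half-life on the log2 scale.

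Other 3′ ends were compared with that of Aldoa by the number of start groups. At the Aldoa 3′ end 12 groups of starts (5′ ends joined within 20 nt) each held at least 1% of the coverage in the polysome table, and 10 did in the decay table. With a coverage of at least 300, 2 other 3′ ends in the polysome table had exactly as many groups; ends with more or fewer were not taken up here. In the first, on the plus strand at chr11:104478039, the leading group held 39.0% against 43.4% for Aldoa; it matched no gene name here. In the second, Cdc34, a gene for a ubiquitin-conjugating enzyme, at chr10:79524230, it held 26.4%. None in the decay table had exactly 10 groups at that coverage.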

How the data were processed

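TIF-seq2 end pairs were measured in 6 polysome and 12 decay libraries. Reads were processed with bcl2fastq 2.20.0, cutadapt 1.16, UMI-tools 0.5.4, STAR 2.5.3a and build GRCm39, per the submitters' processing notes. The authors deposited 1 table per assay with a pooled coverage count, listed from 11 up in the polysome table, and 1 other value per isoform, TE or half-life, whose formulas no source used here gives. Columns with values of a single library numbered 0, so depth per library is unknown and no test or replicate error was possible. Summed coverage was 1601919 and 3121491.

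From these, shares with 95% Wilson intervals, log2 ratios and percentiles were computed in Python 3.11.15 (pandas 2.3.3, numpy 2.4.6, scipy 1.17.1), after a check on simulated data. Percentiles, pair counts and region values of TE and half-life used a coverage of at least 30 and a value above 0; single starts below that are given with their coverage. The distal, middle and proximal regions join starts within 200 nt; later starts were divided by whether their leader reached the shared start codon. Every Aldoa isoform was eligible to be named; other 3′ ends were named by having as many start groups as Aldoa's. The isoforms, regions and gene list were chosen with earlier results of these data known. Promoter sequences and gene copies came from RefSeq (GRCm38.p6), used for names and motifs only.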

Additional observations from a re-analysis of the deposited data

How the results depend on the processing

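Of 66 recomputed values, 47 moved by less than the counting interval or, for counts, by under 1.5 times. Some of the 47 could not move, so this count is no measure of robustness. Every Aldoa isoform had the same 3′ end, so keeping only the most covered 3′ end changed nothing. With starts joined at 20 nt each main start stood alone, so an unweighted median returned its own TE or half-life. The planned joining of starts at 20 nt gave shares of 12.7% (distal), 21.3% (middle) and 43.4% (proximal) in the polysome table. In the decay table it gave 12.4%, 29.7% and 40.8%. The region shares in the Results instead used joining at 200 nt, chosen after the data were seen. These were 13.4% (distal), 22.0% (middle) and 47.6% (proximal) in the polysome table and 13.07%, 29.8% and 45.01% in the decay table. All but the middle share of the decay table had moved past the counting interval. TE percentiles at a coverage of at least 60 were 68.2 for the middle and 36.1 for the proximal start; the proximal start was at 39.98 with all isoforms above 0 and 36.2 among annotated isoforms. Half-life percentiles with all isoforms above 0 and at a coverage of at least 60 were 57.8 and 49.9 (distal), 61.7 and 54.8 (middle), and 56.3 and 48.05 (proximal). Pairs at least 2-fold apart for TE numbered 5 of 136 at a coverage of at least 60 and 2 of 28 at 300. The backgrounds over all genes were 12.5% and 6.62%. For half-life they numbered 2 of 231 and 0 of 78, against backgrounds of 7.22% and 2.98%. The cause was not tested, beyond that fewer pairs enter at higher coverage. Leaving out single replicates was not run. No paired analysis was possible because the tables hold no value per library.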

Other observations

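Other glycolytic genes in the same tables showed how far the coverage of Aldoa was divided. From a list of 20 genes of glycolysis, chosen after the tables had been seen, 6 in the polysome table and 7 in the decay table were matched by name through RefSeq promoter sequences, Aldoa included. The most covered isoform held 43.4% and 40.8% of the coverage of Aldoa. It held 88.0% and 88.3% for Tpi1 (triose phosphate isomerase, which acts on a product of aldolase), 96.2% and 94.9% for Eno1 and 70.6% and 54.0% for Eno3 (enolases, Eno3 being the muscle form). For Pkm (pyruvate kinase) it held 81.8% and 87.2%, and for Pfkm (muscle phosphofructokinase) 84.4% and 63.3%. Summed coverage of Aldoa, 17558 and 45688, was above that of each of these, the next being Pkm with 10167 in the polysome table and Tpi1 with 17016 in the decay table. These sums hold only isoforms matched to the gene.

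TE of the most covered isoform was 0.00129 for Eno1, 0.000848 for Tpi1, 0.000660 for Eno3, 0.000500 for Pkm and 0.000426 for Pfkm, against 0.000627 for Aldoa. The middle start of Aldoa, at 0.000996, lay between Eno1 and Tpi1. Half-lives were 12.8 for Tpi1, 12.1 for Eno1, 12.8 for Eno3, 11.9 for Pkm and 9.96 for Pfkm. Ldhb (a lactate dehydrogenase subunit), matched in the decay table with a single isoform of coverage 222, had 12.6. Aldoa's 11.2 was above Pfkm and below the others.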
